A study of Mus musculus with 6 samples.

Results

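Before a fatty acid can be burned, stored or built into a membrane it has to be joined to coenzyme A, and 3 families of enzymes that carry out this step in liver are described here. The 10 genes, chosen by name, were Acsl1, Acsl3, Acsl4 and Acsl5 (long chain acyl-CoA synthetases), Acsm1, Acsm3 and Acsm5 (medium chain acyl-CoA synthetases) and Slc27a2, Slc27a4 and Slc27a5 (fatty acid transport proteins, which also have acyl-CoA synthetase activity). All 10 were found among the 23291 gene symbols of the deposited tables. Liver RNA of C57BL/6 mice was sequenced to compare mice given a thrombin inhibitor in a fattening diet with mice on the diet alone. The diet group (3 libraries) ate a high fat diet, named Western diet in the sample titles, for 3 months. The dabigatran group ate the same diet for 3 months with 10 mg per g of dabigatran etexilate, an oral prodrug of the direct thrombin inhibitor dabigatran. Every mouse was therefore on the high fat diet, and a group on ordinary chow was not analysed here. Neither age nor sex is given in the sources used here.

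Long chain synthetases sit on the outer mitochondrial membrane, the endoplasmic reticulum and lipid droplets, and acyl-CoA made by different members is thought to be steered to different fates. Medium chain synthetases lie in the mitochondrial matrix, where their products feed beta-oxidation or are conjugated to glycine. Slc27a2 and Slc27a5 are characteristic of liver: the first activates very long chain and branched fatty acids in peroxisomes and the endoplasmic reticulum, and the second is the bile acyl-CoA synthetase that prepares bile acids for conjugation. Several of these genes, Acsl1 among them, are classic targets of the nuclear receptor PPAR alpha, and hepatic Acsl5 is known to respond to the lipogenic factor SREBP-1c.

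Levels are in FPKM, which corrects the number of fragments for gene length and library size, and replicates are named by the numbers in the labels. Dabigatran replicates 0 and 1 were deposited with the same value for each of the 23291 genes, and both tables carry replicate number 1 inside. They were counted as 1 library (dabigatran replicate 1), which leaves 2 dabigatran libraries against 3 of diet. Depth relative to diet replicate 0, read from the steps of low values, was 0.761 to 0.967 in the other 4 libraries. Across all 10247 tested genes limma called 13 higher and 31 lower with dabigatran at an adjusted p under 0.05, and these counts changed with each library left out. The counts were 95 and 199 when diet replicate 1 was left out and 94 and 181 when dabigatran replicate 1 was. They were 0 and 1 when diet replicate 0 was left out (442 and 620 at an unadjusted p under 0.05), 0 and 0 for diet replicate 2 (496 and 611 unadjusted) and 0 and 0 for dabigatran replicate 2 (340 and 670 unadjusted). Hepatocyte transcripts dominated, and 8 markers summed to 30228 to 32678 FPKM on diet alone and 33728 to 47334 with dabigatran. Fewer cells of a type and less RNA per cell cannot be told apart in such bulk samples.

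Promoter windows of the 3 members with the lowest p are shown because these genes differ in how their values moved: Acsl5 and Acsm5 had lower and Acsl4 higher mean values with dabigatran. Each is the 250 bases before the RefSeq start (GRCm38.p6), printed 5′ to 3′ on the gene's strand, from chr19:55253119-55253368 (plus strand) for Acsl5, chrX:142390536-142390785 (minus strand) for Acsl4 and chr7:119526015-119526264 (plus strand) for Acsm5. For Acsl5 and Acsm5 this start lies inside the wider GENCODE gene model. Capitals mark matches on either strand to the motifs spelled out after the sequences.
Acsl5: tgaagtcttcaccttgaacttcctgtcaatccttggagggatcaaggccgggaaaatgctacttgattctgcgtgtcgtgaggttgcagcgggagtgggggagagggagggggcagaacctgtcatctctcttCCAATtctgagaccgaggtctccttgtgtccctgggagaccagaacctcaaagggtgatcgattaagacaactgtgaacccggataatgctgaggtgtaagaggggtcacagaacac
Acsl4: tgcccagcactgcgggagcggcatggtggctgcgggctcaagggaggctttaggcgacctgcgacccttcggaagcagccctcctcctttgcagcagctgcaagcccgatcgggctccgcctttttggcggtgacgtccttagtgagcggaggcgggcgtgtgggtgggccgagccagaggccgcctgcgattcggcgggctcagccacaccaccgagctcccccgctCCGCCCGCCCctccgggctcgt
Acsm5: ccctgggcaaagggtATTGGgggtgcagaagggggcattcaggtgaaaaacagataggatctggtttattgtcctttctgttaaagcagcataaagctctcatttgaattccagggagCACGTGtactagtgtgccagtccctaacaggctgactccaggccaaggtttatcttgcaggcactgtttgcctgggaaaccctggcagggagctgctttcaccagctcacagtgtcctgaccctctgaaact
The motifs searched, on both strands, were the hexamer AGGTCA bound by nuclear receptors and the PPAR element DR1, which is 2 such hexamers with 1 base between them. They also included the sterol element TCACNCCAC, the E-box CACGTG (a palindrome), the NF-Y box CCAAT, the GC box GGGCGG and the TATA box TATAAA. Every exact DR1 match therefore also holds the hexamer, and no other motif contains another. The Acsl5 window held 1 CCAAT box, 117 to 113 bases before the start. The Acsl4 window held 2 overlapping GC boxes on its opposite strand, within 22 to 13 bases of the start, and the Acsm5 window 1 E-box, 132 to 127 bases before the start, and 1 CCAAT box. Of the 10 genes, 9 had an entry, with 2 windows for Acsl1, and Slc27a5 had none. Over these 10 windows 0 held the exact DR1 or a DR1 with 1 mismatch, which 0.0335% and 0.484% of all 32851 windows of this length held. The hexamer was found in the windows of Slc27a2 and Acsm1 (14% of all windows), the sterol element in the second window of Acsl1 (1.05%), the E-box in 1 of 10 (6.02%), the CCAAT box in 6 of 10 (33.8%), the GC box in 5 of 10 (32.7%) and the TATA box in 0 of 10 (12.4%). The windows also varied in CG dinucleotides, of which all windows held a median of 6. Those of Acsm1, Acsm5 and Acsm3 held 1, 1 and 5, the 2 of Acsl1 held 20 and 2, and those of Acsl3, Acsl4 and Slc27a2 held 28, 25 and 19. A match is a description of the letters only.

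In liver the 10 genes spanned a wide range of levels, and the order was nearly the same in every library. By mean FPKM over the 5 libraries it ran Slc27a2 (860.8), Acsl1 (442.7), Slc27a5 (266.7), Acsm1 (123.1), Acsl5 (71.1), Acsm3 (45.4), Acsm5 (40.1), Acsl4 (12.2), Slc27a4 (6.28) and Acsl3 (3.03). Slc27a2 stood at percentile 99.4 of the mean levels of all tested genes and Acsl3 at 24.8. Of the 9 neighbouring pairs in this order, 7 kept it in 5 of 5 libraries. Acsl5 was above Acsm3 in the 3 diet libraries and dabigatran replicate 1 but below it in dabigatran replicate 2, and Acsm3 was above Acsm5 in 4 of 5 libraries, the exception being diet replicate 0. Acsl4 was above Slc27a4 in 5 of 5 libraries, by 1.05 times at the least and 3.25 times at the most.

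**Figure D1:**
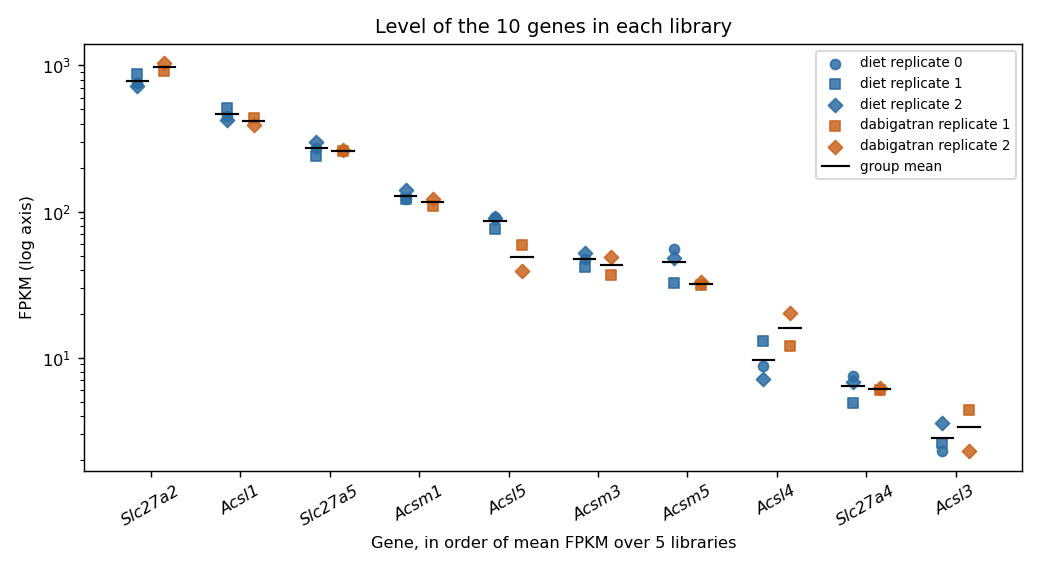
FPKM (log axis) of each gene in the 3 diet libraries (blue) and 2 dabigatran libraries (orange), with group means as black bars. Slc27a2 lies near 1000 and Acsl3 near 3, and the groups are apart for Acsl5 and Slc27a2 only.

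None of the 10 genes passed the test across all genes. Limma called 0 of 10 higher and 0 of 10 lower at an adjusted p under 0.05, where 0.127% of all tested genes were called higher and 0.303% lower (0.429% in either direction). Voom, run on whole fragment numbers, called 0 of the 5 members it could be run on. At an unadjusted p under 0.05, 1 member (Acsl5) was lower and 0 higher, against 9.13% and 6.87% of all tested genes (16.0% in either direction). This count changed with the library left out: 2 were lower (Acsl5 and Acsm5) and 1 higher (Acsl4) without diet replicate 1, 1 lower (Acsl5) and 1 higher (Acsl4) without dabigatran replicate 1, and 0 lower and 0 higher without dabigatran replicate 2. Quantile normalization also gave 1 lower (Acsl5) and 1 higher (Acsl4). The groups did not overlap for 1 member above (Slc27a2) and 1 below (Acsl5), with 17.2% of all tested genes in each direction and 34.4% in either. The median log2 difference of the 10 genes was -0.09, beside 0.020 over all tested genes. It was -0.15 without diet replicate 1, -0.027 without diet replicate 2 and -0.047 without dabigatran replicate 1. The median size of the difference regardless of sign was 0.163 for the members against 0.282 for all tested genes. The median standard error was also smaller for the members, at 0.208 against 0.263, so these sizes do not compare like with like. All 10 passed the filter on low values (at least 1 FPKM in at least 3 of 5 libraries). The diet libraries alone could meet this filter and the dabigatran libraries alone could not. The shares of all tested genes that were higher and lower are therefore not on even terms.

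**Figure D2:**
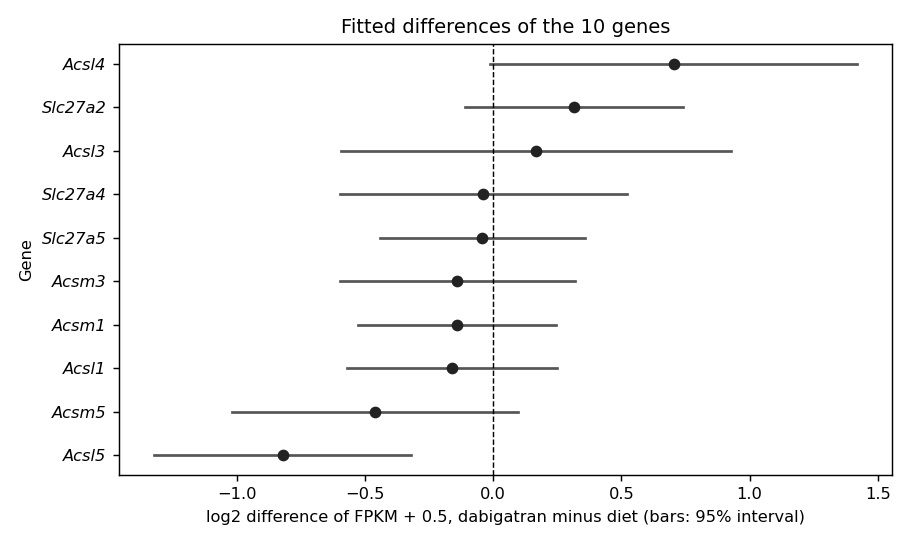
Fitted log2 difference of FPKM + 0.5, dabigatran minus diet, with its 95% interval, for the 10 genes (n = 3 and n = 2 libraries). Acsl5 is the sole gene whose interval excludes 0, and that interval is not adjusted for the number of genes tested.

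Among the long chain synthetases, Acsl5 had the lowest p of the 10 genes. Acsl5 (chromosome 19, 55251938 to 55297720, plus strand), a synthetase of mitochondria and endoplasmic reticulum, had 91.4, 75.4 and 90.4 FPKM in diet replicates 0, 1 and 2 and 59.1 and 39.2 in dabigatran replicates 1 and 2. Both dabigatran values lay under every diet value, with diet replicate 1 the lowest of its group and dabigatran replicate 2 the lowest of all. The means were 85.7 ± 8.99 (SD, n = 3) and 49.2 ± 14.1 (SD, n = 2), a log2 difference of -0.82 ± 0.22 (SE; limma adjusted p = 0.134), or 0.566 times the diet level with a 95% interval of 0.4 to 0.801. The values rested on 341, 214 and 326 fragments on diet alone and 189 and 113 with dabigatran, the smallest whole numbers in the observed ratios. Exact Poisson 95% intervals for counting error alone ran from 65.6 to 86.2 FPKM in diet replicate 1 and from 51 to 68.1 in dabigatran replicate 1. These intervals overlap, which does not show the values of the neighbouring libraries to be equal. Leaving out dabigatran replicate 2 gave -0.53 (limma adjusted p = 0.506) and leaving out dabigatran replicate 1 gave -1.11 (adjusted p = 0.0515), the extremes of all alternatives. Of its merged exon bases, 8.31% overlap those of the palmitoyltransferase gene Zdhhc6 on the opposite strand, which had 29.4, 38.5 and 30.6 FPKM on diet alone and 28.9 and 34.1 with dabigatran, values that overlap between the groups.

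Acsl4 was the member with the next lowest p, and its mean was higher with dabigatran. Acsl4 (chromosome X, 142317993 to 142390535, minus strand), which prefers arachidonic acid and is known for its part in ferroptosis, had 8.84, 13.0 and 7.11 FPKM in diet replicates 0, 1 and 2 and 12.04 and 20.1 in dabigatran replicates 1 and 2. The groups overlapped, since diet replicate 1 exceeded dabigatran replicate 1. The log2 difference was 0.70 ± 0.31 (SE; limma adjusted p = 0.32), with a 95% interval of 0.992 to 2.68 times the diet level. Leaving out dabigatran replicate 2 gave 0.35 (limma adjusted p = 0.807), leaving out dabigatran replicate 1 gave 1.06 (0.165), and leaving out diet replicate 1 gave 0.93 (0.149). Acsl4 is also made by cells other than hepatocytes. The 11 measured macrophage and Kupffer cell markers summed to 299 to 400 FPKM on diet alone and 292 to 408 with dabigatran, and 0 of the 11 were apart between the groups. The 8 endothelial markers summed to 97.1 to 101 and 99.8 to 100, with 6 of 8 above and 1 below the diet range in both dabigatran libraries (17.2% of all tested genes in each direction). Their part in the value of Acsl4 was not tested.

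Acsl1, the most abundant long chain synthetase in these libraries, did not pass the test (limma adjusted p = 0.701). Acsl1 (chromosome 8, 46471037 to 46536051, plus strand) had 453, 515 and 420 FPKM on diet alone and 434 and 392 with dabigatran, so the groups overlapped. The 95% interval of the difference, 0.674 to 1.19 times the diet level, spans 1. Acsl3 (chromosome 1, 78657825 to 78707743, plus strand), found on nascent lipid droplets, was the lowest of the 10, with 2.30, 2.60 and 3.59 FPKM on diet alone and 4.38 and 2.29 with dabigatran. Its dabigatran libraries held the highest and the lowest of the 5 values, and the interval ran from 0.662 to 1.9 times. Utp14b, whose exons on the same strand overlap 5.6% of the exon bases of Acsl3, was also highest in dabigatran replicate 1, at 2.82 FPKM against 0.743 to 1.02 in the other 4 libraries.

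Within the long chain family the share held by Acsl5 was lower and that held by Acsl4 higher with dabigatran. The summed FPKM of the 4 Acsl genes was 555.4, 605.8 and 520.6 in diet replicates 0, 1 and 2 and 509.8 and 453.5 in dabigatran replicates 1 and 2. Acsl1 held 80.6% to 85% of it on diet alone and 85.2% and 86.4% with dabigatran. The share of Acsl5 was 16.5%, 12.4% and 17.4% in diet replicates 0, 1 and 2 and 11.6% and 8.65% with dabigatran, and that of Acsl4 1.59%, 2.146% and 1.365% against 2.36% and 4.43%. For Acsl1, Acsl4 and Acsl5 the groups did not overlap in share, and diet replicate 1 lay nearest to the dabigatran libraries. The shares add up to the whole, so they are not separate observations. Within a library there was 10.3, 5.8 and 12.7 times as much Acsl5 as Acsl4 in the diet group and 4.91 and 1.95 times with dabigatran. Shares and ratios were chosen after the values were seen and have no test.

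Among the transport proteins, Slc27a2 had the highest level and was higher in both dabigatran libraries than in any diet library. Slc27a2 (chromosome 2, 126552407 to 126588243, plus strand) had 755, 874 and 725 FPKM in diet replicates 0, 1 and 2 and 918 and 1032 in dabigatran replicates 1 and 2. The gap between the groups was narrow, with diet replicate 1 just under dabigatran replicate 1. The means were 784.7 ± 79.1 (SD, n = 3) and 975.0 ± 80.4 (SD, n = 2), a log2 difference of 0.32 ± 0.18 (SE; limma adjusted p = 0.443) with a 95% interval of 0.927 to 1.67 times the diet level. Without diet replicate 1 it was 0.40 (limma adjusted p = 0.276) and after quantile normalization 0.17 (adjusted p = 0.658), and the adjusted p ran from 0.276 to 0.805 over the alternatives. Among the 8 measured hepatocyte markers, 5 were above their diet range in both dabigatran libraries and 1 was below, where 17.2% of all tested genes were above and 17.2% below. Cps1, the first enzyme of the urea cycle and the marker with the largest difference, had 248, 469 and 282 FPKM on diet alone and 826 and 1793 with dabigatran. Ttr was the marker below, at 2337, 1849 and 2945 FPKM against 1707 and 1518, and Alb and Apob overlapped between the groups. The part of these markers in the value of Slc27a2 was not tested.

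Slc27a5, the bile acyl-CoA synthetase, and Slc27a4 had close means in the 2 groups. Slc27a5 (chromosome 7, 12988346 to 12998192, minus strand) had 270.0, 240.3 and 300.4 FPKM on diet alone and 259.2 and 263.6 with dabigatran, both inside the diet range. The 95% interval of 0.737 to 1.28 times was the narrowest that a member of this family gave, on 984 to 1562 fragments a library. Slc27a4 (chromosome 2, 29802634 to 29817522, plus strand), a transport protein of the endoplasmic reticulum that takes long and very long chains, had 7.47, 4.91 and 6.76 FPKM on diet alone and 6.05 and 6.18 with dabigatran, again inside the diet range. It rested on 36 to 72 fragments a library, and the interval ran from 0.661 to 1.44 times.

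The ratio of Slc27a2 to Acsl1 was nearly the same in all 3 diet libraries and higher in both dabigatran libraries. There was 1.67, 1.7 and 1.73 times as much Slc27a2 as Acsl1 in diet replicates 0, 1 and 2, and 2.11 and 2.63 times in dabigatran replicates 1 and 2. Both genes were highest of their group in diet replicate 1, the library that differed from the other diet libraries in Acsl5 and Acsm5. Between Slc27a2 and Slc27a5 the ratio was 2.8, 3.64 and 2.41 on diet alone and 3.54 and 3.91 with dabigatran, so the groups overlapped. The sum of the 3 Slc27a genes was 1032, 1120 and 1032 FPKM on diet alone and 1183 and 1302 with dabigatran.

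**Figure D3:**
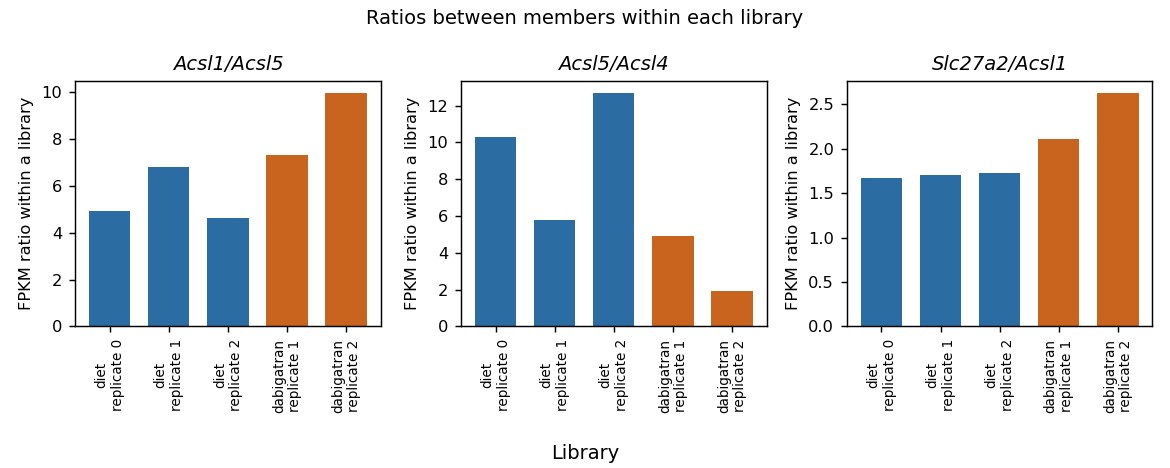
Ratio of the FPKM of Acsl1 to Acsl5, Acsl5 to Acsl4 and Slc27a2 to Acsl1 within each library (bars from 0, blue for diet and orange for dabigatran, 1 bar a library). The Slc27a2 to Acsl1 ratio is 1.67 to 1.73 on diet alone and 2.11 and 2.63 with dabigatran.

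The 3 medium chain genes lie in a row on the plus strand of chromosome 7, where Acsm5, Acsm1 and Acsm3 fall within 268 kb that hold 6 protein-coding genes, the relatives Acsm2 and Acsm4 among them. Acsm1 (119607026 to 119662515), which activates medium chain acids and lipoate, had 122, 121 and 141 FPKM on diet alone and 110 and 122 with dabigatran. Acsm3 (119760923 to 119787513), a synthetase of short and medium chains, had 47.3, 41.8 and 52.0 FPKM and 36.7 and 49.2. For both genes the groups overlapped, and the 95% intervals were 0.694 to 1.19 and 0.661 to 1.25 times the diet level. Of the exon bases of Acsm3, 39.7% overlap Eri2 on the opposite strand, which had 9.15, 9.25 and 9.59 FPKM on diet alone and 7.25 and 9.72 with dabigatran. Whether reads were counted by strand is not given in the sources used here, so the value of Acsm3 is uncertain to that extent. The same holds for Acsl1, Slc27a2, Acsl5 and Acsm5, whose exons overlap other annotated genes on the opposite strand. In that order the overlaps cover 9.91% (Gm45244), 11.2% (the lincRNA Gm26697), 8.31% (Zdhhc6) and 2.74% (Pdilt) of their exon bases.

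Acsm5 (119519463 to 119545551) had 55.5, 32.5 and 48.3 FPKM in diet replicates 0, 1 and 2 and 31.2 and 32.9 with dabigatran. Diet replicates 0 and 2 stood apart above, while diet replicate 1 lay between the dabigatran libraries, so the groups overlapped. The log2 difference was -0.46 ± 0.24 (SE; limma adjusted p = 0.395), and single libraries moved it both ways. It was -0.68 without diet replicate 1 (limma adjusted p = 0.099) and -0.30 without diet replicate 0 (adjusted p = 0.73), and the adjusted p ran from 0.099 to 0.749 over the alternatives. The Acsm1 to Acsm5 ratio was 2.19, 3.74 and 2.91 on diet alone and 3.51 and 3.71 with dabigatran, so the genes of this cluster did not keep a common ratio within the diet group. Acsm2 was at 0.0624 to 0.246 FPKM on diet alone and 0.437 and 0.323 with dabigatran, and Acsm4 was listed at 0 in all 5.

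The nearest profiles were sought for the member with the lowest p and the member with the highest level, as the root mean square difference of log2 values over 5 libraries after each gene's own mean was removed. For Acsl5 the nearest of all tested genes was Plin2, which coats lipid droplets, at 0.0358, where Acsl5 itself varied by 0.453. Plin2 had 474, 420 and 479 FPKM on diet alone and 323 and 210 with dabigatran (log2 difference -0.81, limma adjusted p = 0.14). Next came Mboat7, a lysophospholipid acyltransferase that uses arachidonoyl-CoA, at 0.0386, with 7.23, 5.62 and 7.33 FPKM against 4.30 and 2.87. Jmjd8 followed at 0.0512, with 15.7, 12.7 and 15.4 FPKM against 10.5 and 7.05. For Slc27a2 the nearest were Clpx, the unfoldase of a mitochondrial protease, at 0.0232, C1qtnf1 at 0.0233 and Matr3 at 0.025, where Slc27a2 varied by 0.187. With 5 libraries and 10247 genes, close profiles are a description. Between members the closest pair was Acsm1 and Slc27a5, at 0.0819.

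**Figure D4:**
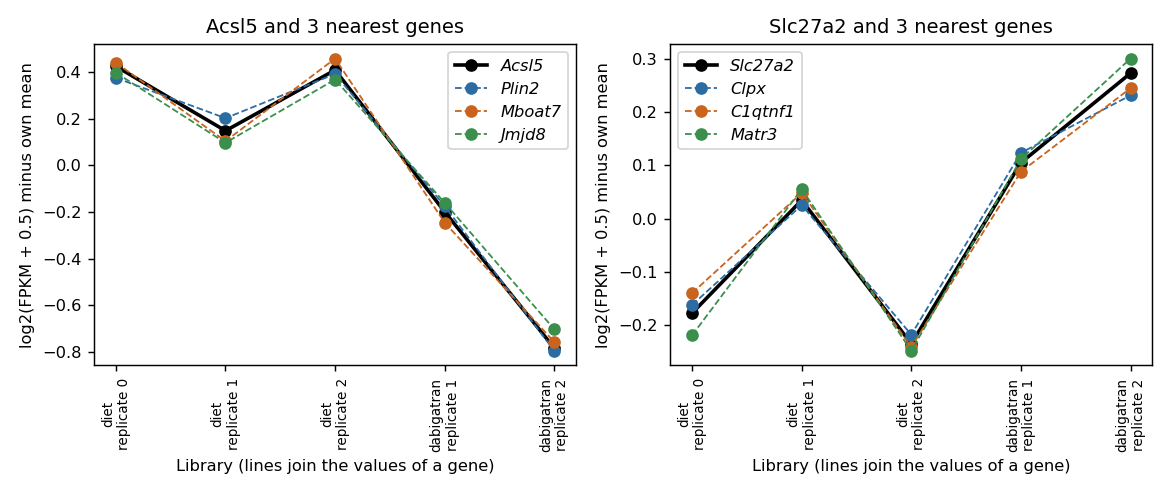
log2(FPKM + 0.5) minus each gene's mean over the 5 libraries, for Acsl5 (left) and Slc27a2 (right) and the 3 tested genes nearest to each; lines join the values of a gene and libraries have no order. Acsl5, Plin2, Mboat7 and Jmjd8 share lower values in diet replicate 1 than in diet replicates 0 and 2 and their lowest in dabigatran replicate 2.

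Of 15 relatives of the 10 genes, 7 were measured well enough to test. Limma called 0 of the 7 in either direction, and 0 had an unadjusted p under 0.05, against 0.429% and 16.0% of all tested genes. Acsl6, Acsbg1 and Acsbg2, the brain and testis forms, were listed at 0 in all 5 libraries. Acsf2, a mitochondrial medium chain synthetase, had 79.3, 52.3 and 70.3 FPKM on diet alone and 49.9 and 47.8 with dabigatran (adjusted p = 0.357), another gene whose diet replicate 1 lay near the dabigatran values. Aacs, which activates acetoacetate for lipid synthesis, had 3.46, 0.874 and 4.403 FPKM and 0.621 and 1.03 (adjusted p = 0.332). Slc27a1, the form of muscle and fat, had 4.88, 4.41 and 2.68 FPKM and 3.56 and 6.71. The adipocyte markers Lep and Plin1 were listed at 0 in all 5 libraries and Adipoq and Retn in all but diet replicate 0. The sum of 6 adipocyte markers was 30.5 to 158 FPKM on diet alone and 3.57 to 4.75 with dabigatran. On diet alone most of it was Cfd, at 150, 28.3 and 47.5 FPKM, which was listed at 0 in both dabigatran libraries. Lipe made up the whole sum with dabigatran. It had 7.04, 2.21 and 6.33 FPKM on diet alone and 3.57 and 4.75 with dabigatran, values that overlap between the groups. The part of these markers in the values given here was not tested.

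Of all 8 pathway lists, called genes were found among those that bind fatty acids and among the transcription factors. Of 14 tested genes of fatty acid uptake and binding, 2 fell and 0 rose (limma). Over all tested genes 0.303% were called lower and 0.127% higher. The median log2 difference of the 14 was -0.41, beside 0.020 over all tested genes. Differences were negative for 13 of 14, and for 4932 of all 10247 tested genes. Fabp2, a fatty acid binding protein best known from intestine, fell from 410, 404 and 396 FPKM on diet alone to 198 and 162 with dabigatran, a log2 difference of -1.17 ± 0.17 (SE, adjusted p = 0.0424), and the liver form Fabp1 fell from 10751, 10425 and 10406 FPKM to 3332 and 1756 (log2 difference -2.12, adjusted p = 0.0404). Dbi, the acyl-CoA binding protein that carries what the synthetases make, had 955, 725 and 927 FPKM against 443 and 348 (log2 difference -1.14, limma adjusted p = 0.0674). Neither Fabp1 nor Fabp2 was called when diet replicate 0 was left out (limma adjusted p = 0.204 for Fabp1 and 0.25 for Fabp2), diet replicate 2 (0.224 and 0.247) or dabigatran replicate 2 (0.169 and 0.231), nor without the filter on low values (0.126 and 0.086) or the variance trend (0.0982 and 0.125). The call of Fabp2 was also lost with a pseudocount of 0.1 (0.0518), quantile normalization (0.0525) and voom (0.0618).

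Among 13 tested thioesterases, which undo the work of the synthetases, limma called 0, with a median log2 difference of -0.19. At an unadjusted p under 0.05, 4 were lower and 0 higher, against 9.13% and 6.87% of all tested genes. Acot13 had 70.4, 37.0 and 64.3 FPKM on diet alone and 27.0 and 26.8 with dabigatran (adjusted p = 0.144), and Acot9 and Acot4 had log2 differences of -1.12 and -0.59. Of 7 carnitine shuttle genes 0 were called (1 lower and 0 higher unadjusted, median -0.25), with Crot, the peroxisomal carnitine octanoyltransferase, at 590, 919 and 578 FPKM against 509 and 191 (limma adjusted p = 0.234). Slc22a5, a carnitine uptake carrier, and Slc25a20, the carnitine-acylcarnitine exchanger, had differences of -0.41 and -0.25.

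Peroxisomal genes had values in both directions, and limma called 0 of 11 (2 higher and 4 lower unadjusted, median -0.21). Over all tested genes, 6.87% were higher and 9.13% lower unadjusted. The import receptor gene Pex7 had 33.9, 30.1 and 33.4 FPKM on diet alone and 20.7 and 19.7 with dabigatran (limma adjusted p = 0.124). Hacl1, which cleaves branched and hydroxylated acyl-CoA of the kind that Slc27a2 helps to form, had 79.7, 120 and 82.8 FPKM against 154 and 179 (limma adjusted p = 0.132). As for Slc27a2, its value in diet replicate 1 was the highest of the diet group.

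Conjugation genes work on the products of Slc27a5 and the Acsm enzymes. Limma called 0 of 7 listed genes (1 higher and 2 lower unadjusted, median -0.51), where 6.87% of all tested genes were higher and 9.13% lower unadjusted. The 7 include Acbd6 (log2 difference -0.53), an acyl-CoA binding protein also counted under fatty acid uptake and binding, so the median is not of conjugation enzymes alone. Baat, which joins bile acyl-CoA to taurine or glycine, had 117, 132 and 120 FPKM on diet alone and 157 and 182 with dabigatran (adjusted p = 0.242), while Slc27a5, the step before it, stayed inside its diet range. Glyat, which joins medium chain and aromatic acyl-CoA to glycine, had 214, 236 and 228 FPKM against 175 and 144 (limma adjusted p = 0.214), and its relative Gm4952 had a difference of -0.58.

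Of 13 genes for the entry of acyl-CoA into glycerolipids and phospholipids, limma called 0 (2 lower and 0 higher unadjusted, median 0.047). Mboat7, Gpat2 and Dgat1 had differences of -0.84, -1.02 and 0.36. Gpat2, 1 of the 2 lower (limma unadjusted p = 0.0271), had a mean of 1.273 FPKM on diet alone and 0.570 and 0.211 with dabigatran. It passed the filter on low values through the diet libraries alone. That selection favours a lower dabigatran value, so its difference cannot be read as a fall. Of 18 transcription factors and coactivators that act on these genes, 1 fell and 0 rose (4 higher and 2 lower unadjusted, median 0.25). Shares over all tested genes were 6.87% higher and 9.13% lower unadjusted, and 0.127% and 0.303% called. The gene that fell was Pparg, by 2.06 on the log2 scale (limma adjusted p = 0.0404), a call that was lost on leaving out diet replicate 0 (0.204), diet replicate 2 (0.224) or dabigatran replicate 2 (0.169), and without the filter (0.0868) or the variance trend (0.0982). Ppara had 51.9, 50.2 and 43.8 FPKM on diet alone and 41.4 and 20.2 with dabigatran, and its partner Rxra had 56.3, 56.1 and 57.4 against 70.5 and 88.5 (adjusted p = 0.24). Srebf1 had 13.5, 5.45 and 18.2 FPKM in diet replicates 0, 1 and 2 and 8.88 and 5.74 with dabigatran, with its lowest value in diet replicate 1. Hnf4a, a factor of hepatocyte identity, had 100.3, 125.1 and 106.6 FPKM against 134.3 and 236.3.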

How the data were processed

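Liver RNA from 6 deposited samples was sequenced after TruSeq RNA library preparation, per the labels' protocols. The values are FPKM per gene symbol, as the authors deposited them, per the file headers. The submitters' processing notes list CASAVA, TopHat, TopHat2 2.0.4, Cuffdiff and R 2.15.1 and the builds mm10 and GRCm38, but assign no step to any. Annotation, strand setting and any scaling across libraries: each is not given in the sources used here. Identical tables of dabigatran replicates 0 and 1 were counted once. Only the series' design text, which speaks of mice, says that replicates are separate animals.

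The 10247 genes that reached 1 FPKM in 3 or more of 5 libraries were tested on log2(FPKM + 0.5) with limma 3.58.1 in R 4.3.3 (two-sided, variance trend, group as the sole term) and Benjamini-Hochberg adjustment over all of them, at a threshold of 0.05. Differences are on that scale, which understates changes of low genes. The limma fit was tested on simulated log2 values drawn independently for each gene. Such values hold no deviation shared by a whole library, so they say nothing of how calls depend on single libraries. Whole fragments (tolerance 2e-05, at most 2000) were recovered for 79.9% of tested genes and 5 of the 10 members. Positions and exon overlaps are from GENCODE M21 (GRCm38), promoters from RefSeq (GRCm38.p6). Members and lists were chosen with earlier results of these data known. The genes named beside the members are every called gene of each pathway list and up to 3 more by unadjusted p, and the 3 nearest profiles of the member with the lowest p and of that with the highest level. Some genes that this rule names are not reported here. Other genes named, and the shares and ratios, were chosen after their values were seen. Alternatives were other pseudocounts, filters, scalings and variance models, voom, a replicate block and leaving out each library.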

Additional observations from a re-analysis of the deposited data

How the results depend on the processing

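None of the 139 values of the 10 members under the alternatives was called, and 6 of them, in 4 genes, changed sign. Leaving out 1 library in turn moved Slc27a4 from -0.20 to 0.078, Slc27a5 from -0.12 to 0.037, Acsl3 from -0.24 to 0.57 and Acsm3 from -0.35 to 0.070, and the replicate block gave 0.078 for Slc27a4. Counts over all genes (13 higher and 31 lower) became 6 and 17 with a pseudocount of 0.1, 0 and 0 without a filter on low values (limma, 816 higher and 1117 lower unadjusted), 0 and 0 without a variance trend (692 and 870 unadjusted), 8 and 8 with voom and 5 and 8 with the replicate block. At least 5 FPKM gave 8 higher, quantile normalization 16 lower, and leaving out 1 library 0 to 95 higher and 0 to 199 lower; the cause was not tested. The same limma fit on the 8191 genes with whole fragments, chosen after seeing the data, called 0 of 5 members. Same-numbered libraries had correlations of deviations of -0.045 and -0.025 across genes. The 2 dabigatran libraries deviate from their mean by equal and opposite amounts, so these values cannot decide whether the numbers pair libraries. The replicate block, which sets diet replicate 0 aside, changed no call of a member. It ended the calls of Fabp1, Fabp2 and Pparg (limma adjusted p = 0.11, 0.14 and 0.0678). Acsl3 was not tested at 5 FPKM, and Acsl1, Acsl3, Acsl4, Acsm3 and Slc27a2 could not be run in voom. Depth limits Slc27a4 (36 to 72 fragments), and 2 distinct dabigatran libraries limit every interval.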
